A study of Mus musculus with 4 samples.

Results

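The genes described here are 9 mouse genes of the MHC class I antigen presentation pathway, chosen by name from the 33696 genes of the deposited tables: B2m, H2-K1, H2-D1, Tap1, Tap2, Tapbp, Psmb8, Psmb9 and Nlrc5. They were followed in conventional CD4+ T cells, by tissue, by cell state, and in cells with and without transcripts of the interferon-induced genes Ifit1, Ifit3 and Rsad2. The cells came from wild-type (WT) C57BL/6 mice with experimental autoimmune encephalomyelitis (EAE), an autoimmune inflammation of the central nervous system that serves as a model of multiple sclerosis, on day 60 after immunization. Antigen-experienced CD4+ CD44+ T cells without GITR, a receptor that regulatory T cells carry, were sorted from the brain and, for comparison, from the spleen of such mice (CD4+ CD44+ GITR- Tconv). Both groups therefore share genotype, disease, day and sort gate, and no unimmunized mice or other days were analysed here. Each tissue gave 1 droplet library of 5′ transcript ends and 1 T cell receptor library, and the sources used here do not say how many animals were pooled.

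MHC class I molecules show peptides from inside the cell to CD8+ T cells and to natural killer cell receptors, and nearly all nucleated cells make them, T cells included. A heavy chain pairs with the light chain β2-microglobulin and is loaded in the endoplasmic reticulum with peptides that the proteasome cuts and the TAP transporter carries in. Type I and type II interferons are known to raise the genes of each of these steps, in part through factors of the IRF family and, in lymphocytes, through the transactivator NLRC5, which acts with RFX factors at class I promoters. CD4+ T cells themselves recognise peptides on MHC class II, so class I on a CD4+ T cell concerns how other cells see it.

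Fixed letter patterns known from interferon and NF-kappaB responses matched in some promoters of the pathway and not in others. Promoter windows of 250 bases before the annotated start (RefSeq, GRCm38.p6) were at hand for 7 of the 9 genes, all but Tap2 and Nlrc5. The core of the interferon-stimulated response element (2 copies of GAAA with 2 bases between them, searched on both strands like each motif here) stood in 3.04% of all 27025 windows of the mouse table, and among the 7 genes in B2m only, 139 bases before the start. The same core occurred at 2 places in Ifit1, at 2 in Ifit3 and at 1 in Rsad2, the genes that define the interferon classes used below. A kappaB motif (GGG and TTCCC with 2 bases between them) stood in 1.44% of all windows and in H2-K1 and H2-D1, and TTCNNNGAA, a gamma-activated site, in 7.18% of all windows and in Psmb8. TGACGTCA, a cAMP response element, stood in 1.62% of all windows and in 0 of the 7 genes. The CCAAT box, ATTGG, stood in 34.5% of all windows and in 6 of the 7 genes, all but Psmb8. The windows below are shown because they set the light chain, both heavy chains, the shared Tap1 and Psmb9 region, Psmb8, and tapasin, the gene with the largest ratio in brain interferon-high cells, beside 2 of the interferon genes. Each sequence runs 5′ to 3′ towards the start of its gene. Capitals mark the interferon-stimulated core or its reverse complement in B2m, Ifit1 and Ifit3, the kappaB motif in H2-K1 and H2-D1, TTCNNNGAA in Psmb8 and the reverse complement of ATTGG in the Tap1 and Psmb9 region. Tapbp holds none of these marks, since only its CCAAT boxes matched. A match of letters is a description, not a shown binding site. Other spellings of these elements were not searched, so a window without a match may still hold one.
B2m: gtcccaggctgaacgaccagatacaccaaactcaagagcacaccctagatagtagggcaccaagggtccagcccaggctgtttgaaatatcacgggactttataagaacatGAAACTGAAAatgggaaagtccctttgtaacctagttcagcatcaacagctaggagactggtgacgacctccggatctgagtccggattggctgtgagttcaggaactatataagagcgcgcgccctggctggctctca
H2-K1: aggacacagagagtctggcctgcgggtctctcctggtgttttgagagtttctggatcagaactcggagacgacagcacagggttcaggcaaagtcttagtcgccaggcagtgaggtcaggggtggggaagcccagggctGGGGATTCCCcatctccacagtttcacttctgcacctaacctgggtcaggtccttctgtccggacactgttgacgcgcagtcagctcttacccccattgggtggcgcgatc
H2-D1: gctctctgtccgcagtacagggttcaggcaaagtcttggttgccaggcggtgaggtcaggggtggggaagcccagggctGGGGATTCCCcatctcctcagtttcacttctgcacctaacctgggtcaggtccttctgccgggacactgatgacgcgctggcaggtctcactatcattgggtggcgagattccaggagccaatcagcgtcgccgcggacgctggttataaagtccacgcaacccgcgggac
Tap1-Psmb9: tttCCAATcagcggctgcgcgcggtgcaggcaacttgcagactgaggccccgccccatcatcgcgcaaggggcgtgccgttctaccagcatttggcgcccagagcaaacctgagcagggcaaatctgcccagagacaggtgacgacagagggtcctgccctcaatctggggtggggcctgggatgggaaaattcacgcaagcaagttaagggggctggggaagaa
Psmb8: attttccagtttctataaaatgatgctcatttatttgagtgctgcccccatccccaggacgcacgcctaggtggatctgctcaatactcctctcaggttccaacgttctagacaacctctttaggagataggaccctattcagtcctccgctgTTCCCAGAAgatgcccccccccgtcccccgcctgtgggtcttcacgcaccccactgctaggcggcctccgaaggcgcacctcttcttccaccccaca
Tapbp: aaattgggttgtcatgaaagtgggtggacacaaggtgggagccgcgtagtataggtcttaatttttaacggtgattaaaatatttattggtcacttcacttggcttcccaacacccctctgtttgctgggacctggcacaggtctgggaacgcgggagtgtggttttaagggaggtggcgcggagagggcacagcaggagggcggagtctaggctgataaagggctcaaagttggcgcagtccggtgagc
Ifit1: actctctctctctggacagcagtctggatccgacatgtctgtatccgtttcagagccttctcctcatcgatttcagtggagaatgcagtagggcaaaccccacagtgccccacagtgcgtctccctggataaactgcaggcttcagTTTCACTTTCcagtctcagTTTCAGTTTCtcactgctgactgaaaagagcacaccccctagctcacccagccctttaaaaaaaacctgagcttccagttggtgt
Ifit3: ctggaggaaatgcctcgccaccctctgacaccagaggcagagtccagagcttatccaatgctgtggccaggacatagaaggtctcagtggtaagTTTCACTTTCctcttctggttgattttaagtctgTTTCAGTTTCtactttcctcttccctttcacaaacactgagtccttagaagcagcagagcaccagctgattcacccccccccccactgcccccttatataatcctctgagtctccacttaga
The B2m window is chr2:122147437-122147686 on the plus strand. H2-K1 lies at chr17:34000348-34000597 on the minus strand and H2-D1 at chr17:35262844-35263093 on the plus strand. The windows of H2-K1 and H2-D1 share a run of 47 identical bases that holds the kappaB letters, starting 141 bases before the H2-K1 start and 201 bases before the H2-D1 start. Tap1 and Psmb9 point away from each other, and the 225 bases between their starts, chr17:34187331-34187555, are printed in the direction of the plus strand, so that both genes share the 1 CCAAT box shown. Psmb8 lies at chr17:34197945-34198194 and Tapbp at chr17:33919228-33919477, both on the plus strand. Ifit1 lies at chr19:34640639-34640888 and Ifit3 at chr19:34583279-34583528, both on the plus strand.

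Of 4277 brain and 8707 spleen barcodes with 44386447 and 65191435 UMIs (unique molecular identifiers, 1 per captured transcript), 3964 brain cells and 7988 spleen cells were used, at medians of 9843.5 and 7190 UMIs. The 2 libraries shared 31 barcodes. All 5 T cell markers (Cd3d, Cd3e, Cd3g, Cd4 and Trac) were above 10 CPM (UMIs of a gene per 1000000 UMIs) in both tissues, and their summed level was 2837 CPM in brain and 3148 CPM in spleen. Foxp3, the regulatory T cell factor, was detected in cells of both tissues despite the GITR- gate (248 brain and 920 spleen cells by the state rule below). Levels below are CPM of the UMIs summed over the cells of a group. Since each tissue has 1 library, no replicate spread and no test can be given: the 95% intervals cover counting error only, cells of 1 library are not replicates, and a gene is called higher or lower when its ratio reaches 1.5-fold with at least 10 CPM in the higher group. H2-K1, H2-D1 and the H2-Q genes are close copies that may share reads, so the split between them is uncertain. The B cell list (7 markers) summed to 107 CPM in brain and 298 CPM in spleen, with 1 marker above 10 CPM in each, and the myeloid list (9 markers) to 185 and 93.6 CPM, with C1qb at 0 in spleen. Without the 185 brain and 234 spleen cells that had at least 2 of these markers, the counts of class I genes called between tissues and between interferon classes were the same. Cd8a and Cd8b1, genes of CD8+ T cells, were among the leading genes of a brain cluster of 146 cells and a spleen cluster of 155 cells. No comparison left these clusters out, and their part in the ratios was not tested.

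Brain and spleen cells carried the class I pathway at nearly the same level. None of the 9 genes reached 1.5-fold, where 9.82% of 8638 genes were higher and 8.66% lower in brain than in spleen. The median log2 ratio of the 9 genes was -0.00, beside -0.09 over all genes. B2m (ENSMUSG00000060802), the light chain shared by all class I molecules, had 4390 CPM in brain, against 3764 CPM in spleen (ratio 1.17, interval 1.16 to 1.17). H2-K1 (ENSMUSG00000061232), a classical heavy chain, had 3790 CPM in brain, against 3802 CPM in spleen, and its ratio of 0.997 passed to 1.03 with TMM factors or DESeq2 size factors. H2-D1 (ENSMUSG00000073411), the other classical heavy chain, had 3337 CPM in brain, against 2865 CPM in spleen (ratio 1.16, 1.16 to 1.17). The light chain and H2-D1 were thus slightly higher in brain, by intervals that leave out 1, and H2-K1 was level.

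Among the peptide supply genes, Tap1, Tapbp and Psmb9 were slightly lower in brain, while Tap2 and Psmb8 lay nearer to 1; the median ratio over all genes was 0.936. Tap1 (ENSMUSG00000037321), which with Tap2 forms the pump that carries peptides into the endoplasmic reticulum, had 151 CPM in brain, against 171 CPM in spleen (ratio 0.880, 0.852 to 0.908). Tap2 (ENSMUSG00000024339) had 178 CPM in brain, against 185 CPM in spleen. Tapbp (ENSMUSG00000024308), which encodes tapasin, the bridge between the transporter and the empty heavy chain, had 179 CPM in brain, against 195 CPM in spleen (ratio 0.921, 0.894 to 0.948). Of the immunoproteasome subunits, which replace constitutive catalytic subunits of the proteasome in stimulated and lymphoid cells, Psmb8 (ENSMUSG00000024338) had 655 CPM in brain, against 636 CPM in spleen. Its ratio of 1.03 passed to 0.983 when ribosomal, mitochondrial and receptor genes were left out of the totals. Psmb9 (ENSMUSG00000096727) had 251 CPM in brain, against 283 CPM in spleen (ratio 0.887, 0.865 to 0.908). Nlrc5 (ENSMUSG00000074151), the class I transactivator, had 173 CPM in brain, against 151 CPM in spleen (ratio 1.14, 1.11 to 1.18). None of these differences approaches the fold rule.

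Around these genes, the other class I genes and the proteasome lists had no call, and the loading, regulator and receptor lists had 5, all higher in brain. None of 6 other class I genes reached 1.5-fold (median ratio 1.18), with H2-Q4 at 600 CPM in brain, against 436 CPM in spleen. None of the 5 genes of the proteasome activator list (Psme1, Psme2, Psme3, Psmb10 and Pomp) and none of 3 constitutive catalytic subunits did so either. In the peptide loading list 2 of 7 genes were higher in brain, the endoplasmic reticulum chaperone Hspa5 at 925 CPM in brain, against 385 CPM in spleen, and Sec61a1, a subunit of the translocation channel, at 92.8 CPM in brain, against 58.6 CPM in spleen. Of 14 regulators, Nfkb1 alone was called, with 318 CPM in brain and 207 CPM in spleen. The receptor chain Ifngr1 had 934 CPM in brain, against 272 CPM in spleen, the largest ratio among the 9 receptor and signalling genes. Socs1, an inhibitor of cytokine signalling on the same list, had 178 CPM in brain, against 99.9 CPM in spleen (1.78). On a list of dissociation stress genes, all 11 tested members were higher in brain, with a median ratio of 10.2; the part of this in any tissue ratio was not tested.

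Some interferon-induced transcripts differed between the tissues. On the list of type I interferon-stimulated genes, 3 of 19 tested were called higher in brain, Mx1 (2.56), Oasl2 (1.99) and Isg20 (2.67), and none lower, where 9.82% of all genes were higher and 8.66% lower. The median ratio of that list was 1.22, and its lowest was 0.734 for Slfn1. Of 14 tested guanylate-binding and interferon-γ-induced genes, Gbp6 (2.02) and Cxcl10 (3.87) were called higher and Irgm2 (0.607) lower. The 3 genes used below to class cells were all called higher in brain. Ifit1, an RNA-binding antiviral protein, had 49.2 CPM in brain, against 29.6 CPM in spleen (ratio 1.66). Ifit3, of the same family and with a close copy, Ifit3b, had 55.9 CPM in brain, against 21.5 CPM in spleen (ratio 2.61). Rsad2, the antiviral enzyme viperin, had 17.8 CPM in brain, against 7.31 CPM in spleen (ratio 2.44). Cells with at least 2 of the 3 genes detected are called interferon-high below and cells with none interferon-none. Interferon-high cells were 381 of 3964 in brain (9.61%, exact interval 8.71 to 10.6%) and 299 of 7988 in spleen (3.74%, 3.34 to 4.18%). Detection depends on depth, and after thinning each cell to 3000 UMIs, which left out 227 brain and 532 spleen cells, the shares were 4.76% in brain and 1.96% in spleen. Among 171 spleen cells of a B cell-like cluster, 0 were interferon-high, at a median of 5450 UMIs. The tissue ratio of the class I genes was read again within these classes. In interferon-high cells 0 of 9 genes reached 1.5-fold between brain and spleen, where 11.2% of genes were higher and 12.1% lower. In interferon-none cells the count was again 0 of 9, where 9.96% were higher and 8.93% lower.

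**Figure D1:**
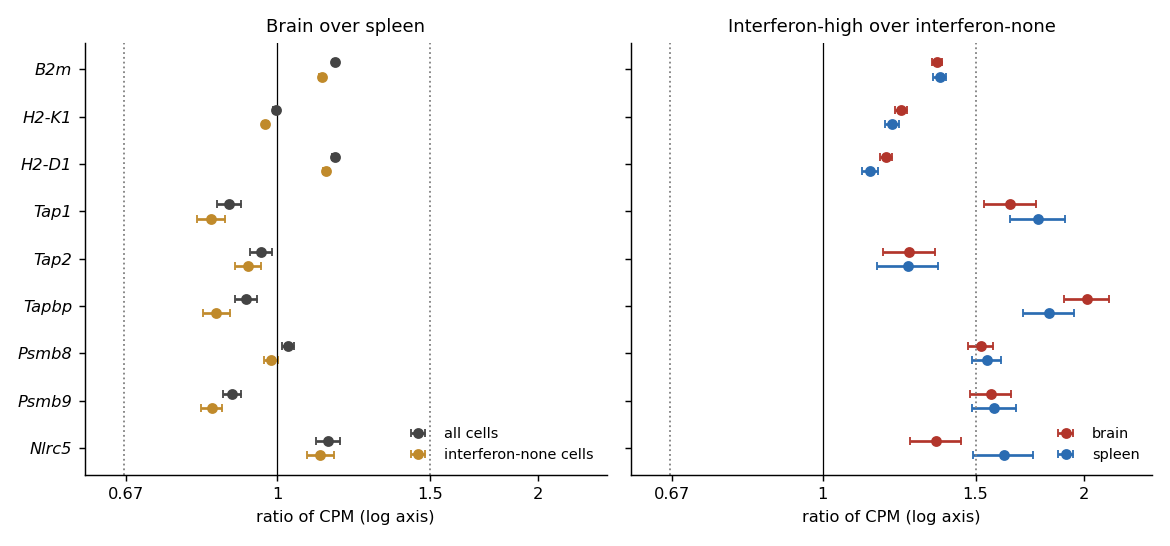
Ratio of CPM for each of the 9 genes (log axis, with the 95% counting interval), for brain over spleen at left in all cells and in interferon-none cells, and for interferon-high over interferon-none cells at right in brain and in spleen; dotted lines mark the fold rule of 1.5. The tissue ratios stay between the dotted lines, while Tapbp, Tap1, Psmb8 and Psmb9 in both tissues, and Nlrc5 in spleen, pass the right-hand line in interferon-high cells.

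Cells with interferon transcripts carried more of the class I pathway, and the peptide supply genes other than Tap2 differed more than the chains themselves. In brain, 4 of 9 genes reached 1.5-fold in interferon-high over interferon-none cells, where 3.40% of 8384 genes were higher and 2.79% lower. In spleen, 5 of 9 did so, where 3.93% of 8524 genes were higher and 3.30% lower. All 9 ratios were above 1 in both tissues, with a median log2 ratio of 0.44 in brain and 0.63 in spleen, beside -0.07 and -0.06 over all genes.

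The heavy chains differed least, while the light chain differed more than Tap2 in both tissues. B2m had 5571 CPM in interferon-high and 4112 CPM in interferon-none brain cells, a ratio of 1.35 (1.34 to 1.37). In spleen it had 4983 CPM in interferon-high and 3653 CPM in interferon-none cells, a ratio of 1.36 (1.34 to 1.39). H2-K1 had 4463 CPM in interferon-high and 3627 CPM in interferon-none brain cells, and 4495 CPM against 3741 CPM in spleen, which gives ratios of 1.23 and 1.20. H2-D1 had ratios of 1.18 in brain (3827 CPM in interferon-high and 3234 CPM in interferon-none cells) and 1.13 in spleen (3218 CPM and 2837 CPM). The light chain and both heavy chains stayed under the fold rule in both tissues.

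Tapasin differed most. Tapbp had 316 CPM in interferon-high and 157 CPM in interferon-none brain cells, a ratio of 2.01 (1.90 to 2.14). In spleen it had 336 CPM in interferon-high and 184 CPM in interferon-none cells, a ratio of 1.82 (1.70 to 1.95). Tapbp had the largest ratio of the 9 genes in both tissues, with an interval that overlaps those of Tap1 and Nlrc5 in spleen. The subunits of the peptide transporter differed. Tap1 had 224 CPM in interferon-high and 136 CPM in interferon-none brain cells (ratio 1.64, 1.53 to 1.76), and 287 CPM against 162 CPM in spleen (1.77, 1.65 to 1.90). Tap2 had 212 CPM in interferon-high and 169 CPM in interferon-none brain cells (1.26, 1.17 to 1.35), and 229 CPM against 183 CPM in spleen (1.16 to 1.36). The intervals of Tap1 and Tap2 do not overlap in either tissue.

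The 2 immunoproteasome subunits stood just past the fold rule. Psmb8 had 913 CPM in interferon-high and 600 CPM in interferon-none brain cells (1.52, 1.47 to 1.57), and 943 CPM against 610 CPM in spleen (1.54, 1.48 to 1.61). Psmb9 had 356 CPM in interferon-high and 228 CPM in interferon-none brain cells (1.56, 1.48 to 1.65), and 427 CPM against 271 CPM in spleen (1.58, 1.49 to 1.67). Both intervals reach below 1.5 in each tissue, so these calls sit at the edge of the rule. Nlrc5 had 218 CPM in interferon-high and 162 CPM in interferon-none brain cells (1.35, 1.26 to 1.44), and 233 CPM against 144 CPM in spleen (1.62, 1.49 to 1.75). The interval of the transactivator was lower in brain than in spleen without overlap, a difference of 2 libraries that no replicate checks.

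Interferon-high cells also differed from interferon-none cells in depth and in their mix of states. Their median was 10910 UMIs against 9651 in brain and 8602 against 7062.5 in spleen, and 1.57% against 8.50% of brain cells and 0.334% against 7.14% of spleen cells lay in low-UMI clusters. Ifng, the gene of interferon-γ, was detected in 55.1% of interferon-high and 40.8% of interferon-none brain cells, and in 13.0% and 7.30% of spleen cells. The CD8 T cell list (Cd8a, Cd8b1 and Eomes, 2 of 3 above 10 CPM and none at 0) summed to 93.8 CPM in interferon-high and 32.8 CPM in interferon-none brain cells, and to 33.2 CPM and 25.5 CPM in spleen. When interferon-none cells were weighted to the state mix of interferon-high cells, brain ratios were 2.01 for Tapbp, 1.61 for Tap1, 1.49 for Psmb9 and 1.46 for Psmb8, so that 2 of 9 genes were called in brain and 4 in spleen. In brain, 99 interferon-high cells could be set against 311 interferon-none cells of the same 68 clonotypes (cells with the same receptor). There Tap1 had a ratio of 1.704, above the 1.67 of Tapbp, while Psmb8 had 1.21, Psmb9 1.10 and B2m 1.12, and 2 of 9 genes were called. Leaving out the low-UMI clusters gave 3 calls in brain, with Psmb8 at 1.49, and 5 in spleen. The share of all genes called is not given for these settings.

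The class I genes followed the number of interferon genes detected. Over cells with 0, 1, 2 and 3 of Ifit1, Ifit3 and Rsad2, all 18 series (9 genes in 2 tissues) were higher at each step. Of the 54 neighbouring steps, 8 had overlapping intervals, 5 of them in Tap2, 2 in Nlrc5 and 1 in Psmb9. Tapbp had 157, 189, 240 and 418 CPM in brain and 184, 221, 296 and 412 CPM in spleen. B2m had 4112, 4858, 5364 and 5850 CPM in brain and 3653, 4143, 4829 and 5280 CPM in spleen. Cells with all 3 genes over cells with none had a ratio of 2.66 for Tapbp in brain and 2.24 in spleen, and of 1.22 for H2-D1 in brain and 1.24 in spleen, the largest and smallest of the 9 in each tissue. Median depth also differed over these steps, at 9651, 10209.5, 10778 and 10980 UMIs in brain and at 7062.5, 7774, 8447 and 9220 UMIs in spleen, and within cells of 5000 to 15000 UMIs the calls of interferon-high over interferon-none cells were again 4 in brain and 5 in spleen.

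**Figure D2:**
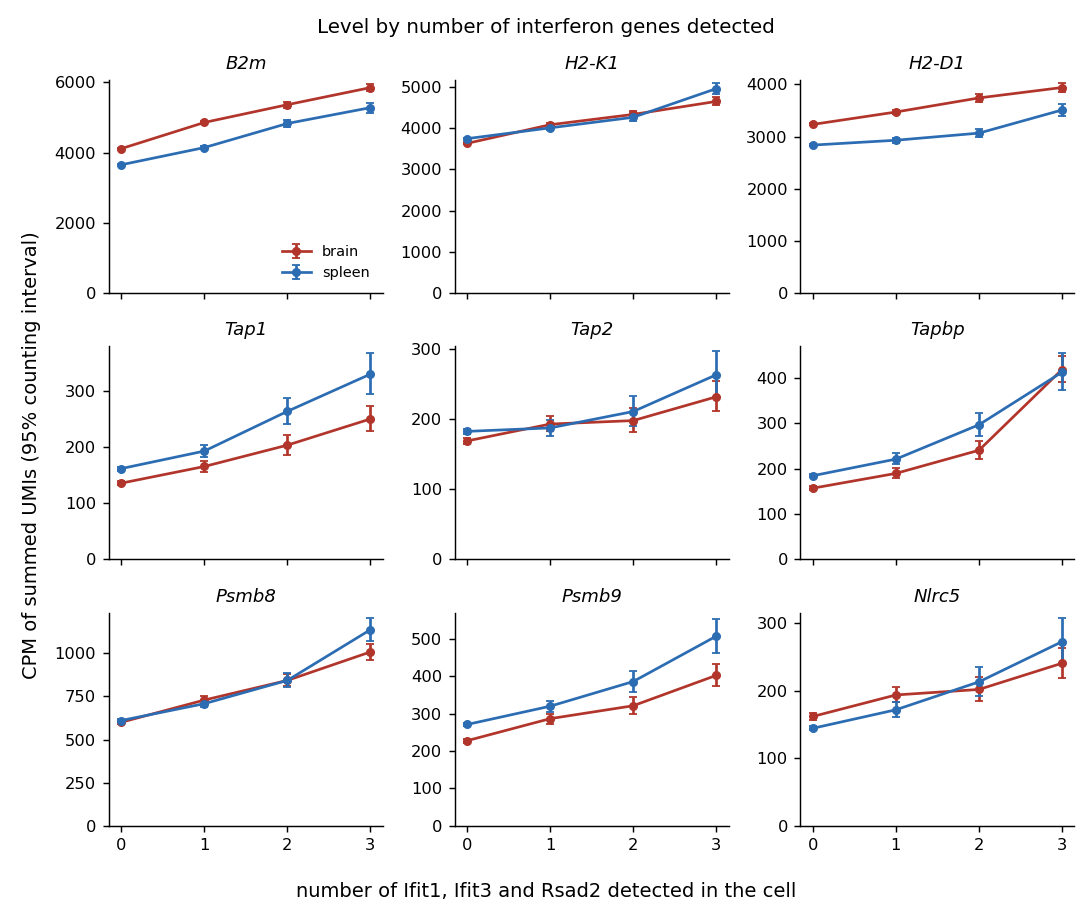
CPM of each gene (vertical axis from 0, with 95% counting intervals) in cells with 0, 1, 2 or 3 of Ifit1, Ifit3 and Rsad2 detected, in brain and in spleen. With none of the 3 genes detected the brain level of Tapbp is 157 CPM and the spleen level 184 CPM, and with all 3 they are 418 and 412 CPM, while H2-D1 has the smallest ratio of all 3 over none, 1.22 in brain and 1.24 in spleen.

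Per cell, the chains were found almost everywhere and the loading genes in part of the cells. After thinning to 3000 UMIs, B2m was detected in 100% of interferon-high and 98.2% of interferon-none brain cells. Tapbp was detected in 60.4% of interferon-high and 35.6% of interferon-none brain cells, and in 59.2% and 41.5% of spleen cells. Tap1 was detected in 46.8% of interferon-high and 31.9% of interferon-none brain cells, and in 51.8% and 37.9% of spleen cells. Nlrc5 was detected in 47.3% of interferon-high and 33.3% of interferon-none brain cells, and in 45.8% and 31.1% of spleen cells. Before thinning, Tapbp was found in 90.6% of interferon-high and 69.9% of interferon-none brain cells.

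Other genes of the pathway split in the same comparison. Among other class I genes, 3 of 6 reached 1.5-fold in brain and 2 of 6 in spleen. H2-T22, a nonclassical class I gene, had 445 CPM in interferon-high and 200 CPM in interferon-none brain cells (2.23) and a ratio of 1.84 in spleen. H2-T23, which encodes the peptide-presenting molecule Qa-1, had 851 CPM in interferon-high and 456 CPM in interferon-none brain cells (1.87) and a ratio of 1.90 in spleen. H2-M3, which presents formylated peptides, had a ratio of 1.53 in brain and 1.48 in spleen. These ratios exceed those of H2-K1 and H2-D1 in both tissues.

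Psmb10, the third induced catalytic subunit, had 306 CPM in interferon-high and 163 CPM in interferon-none brain cells, and 364 CPM against 193 CPM in spleen, a ratio of 1.89 in both. Psme1, a subunit of the proteasome activator PA28, had ratios of 1.59 in brain and 1.52 in spleen, and its partner Psme2 had 1.44 in brain and 1.64 in spleen. None of the constitutive catalytic subunits Psmb5, Psmb6 and Psmb7 was called in either tissue, with ratios of 1.03, 0.989 and 0.926 in brain and 1.22, 0.989 and 1.14 in spleen. In the peptide loading list 0 of 7 genes were called in brain and 1 of 7 in spleen, where Hspa5 had a ratio of 1.56. Calreticulin (Calr) had 0.854 in brain and 1.10 in spleen, and Pdia3, the thiol oxidoreductase of the loading complex, 1.03 and 1.26. The trimming enzyme Erap1 had 1.13 in brain and 1.17 in spleen.

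Among the regulators, Stat2, a factor of type I interferon signalling, had a ratio of 5.55 in brain and 4.36 in spleen. Irf9, its partner on interferon-stimulated genes, had 2.71 in brain and 2.41 in spleen. Irf1, a factor that acts at class I promoters, had 371 CPM in interferon-high and 248 CPM in interferon-none brain cells (1.49) and a ratio of 1.39 in spleen, both under the rule. All 19 tested of 20 type I interferon-stimulated genes were called higher in both tissues (median ratios 6.04 in brain and 6.18 in spleen), and so were all 15 tested of 16 guanylate-binding and interferon-γ-induced genes (3.59 and 3.69). Cxcl9, of the second list, was too low to test. Usp18, a negative regulator of type I receptor signalling, had a ratio of 14.7 in brain and 15.7 in spleen. Ifngr2, a chain of the interferon-γ receptor, was lower, at 0.628 in brain and 0.575 in spleen. The gate consists of such genes, so these lists describe the gate and are not independent of it. None of 11 dissociation stress genes in brain and of 9 in spleen was called.

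Within single states the ratio of Tapbp stayed high. States were given to each cell by transcripts detected, in a fixed order and by the same rule in both tissues, and those described here with at least 20 interferon-high cells were 5 in brain and 4 in spleen. Tapbp had ratios and intervals above 1 in all 9, from 1.40 in brain cells with Mki67 and Top2a (cell cycle genes) to 2.62 in brain cells with Itga1 or Cxcr6 (tissue residency genes). The Tap1 ratio was above 1 in all of them, from 1.18 in brain cells with Mki67 and Top2a to 2.0 in brain cells with none of the state genes. The B2m ratio likewise exceeded 1 in all of them, from 1.15 in brain cells with Mki67 and Top2a to 1.53 in brain cells with none of the state genes. Tap2 fell on both sides of 1, at 0.90 in brain cells with Mki67 and Top2a and 1.73 in Foxp3 cells of the brain. In spleen cells with the invariant receptor, H2-D1 had a ratio of 0.937 and H2-K1 of 0.981, so the heavy chains were not higher with interferon transcripts in that state.

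Clusters were made without the 9 genes, and low-UMI clusters and clusters under 50 cells were left out of the ranking. Among the rest, an interferon response-like cluster had the highest level of 9 genes in brain and of 5 in spleen. In the low-UMI clusters left out, Nlrc5 was higher still, at 613 and 566 CPM in brain and at 545 and 891 CPM in spleen. A brain cluster of 137 cells led by Ifit3, Isg15, Rsad2, Cxcl10 and Mx1, interferon response-like by 5 markers, held 128 interferon-high cells. It had the highest level of all 9 genes among the 11 brain clusters read, with B2m at 6403 CPM, Tapbp at 480 CPM, Psmb8 at 1120 CPM and Nlrc5 at 264 CPM. A spleen cluster of 92 cells led by Ifit3, Isg15 and Ifit1, with 70 interferon-high cells, was highest of 12 for 5 of the 9 genes: Tap1 (262 CPM), Tapbp (314 CPM), Psmb8 (938 CPM), Psmb9 (462 CPM) and Nlrc5 (262 CPM). For B2m (5811 CPM), H2-K1 (6030 CPM) and Tap2 (243 CPM) a spleen cluster of 686 cells led by Xcl1, Klrb1c and Cd160 was highest instead, and for H2-D1 (4141 CPM) a spleen cluster of 309 cells led by Ccl5, Zeb2 and Gzma. The interferon response-like clusters consist mostly of interferon-high cells. Their levels are therefore not independent of the comparison of interferon classes above.

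Across states, B2m, H2-K1, H2-D1, Tap2 and Psmb8 were highest in cells with the invariant receptor in both tissues, although for H2-D1, Tap2 and Psmb8 the interval overlaps that of the next state. The invariant receptor, TRAV11 joined to TRAJ18, marks natural killer T cells, which recognise lipids on CD1d. B2m had 6003 CPM in 120 brain and 5607 CPM in 646 spleen invariant receptor cells. It was lowest in cells with none of the state genes, with 3115 CPM in the 546 such cells of the brain, against 3312 CPM in the 2006 of the spleen. Cells with Ifng but not Il17a came next in brain, at 4866 CPM, and cells with Tbx21 and Nkg7, genes of T helper 1 and cytotoxic cells, next in spleen, at 4593 CPM. The top of both B2m orders stands apart by its interval, while the brain cells with Tbx21 and Nkg7, with Il17a and Ifng, with Mki67 and Top2a and with Itga1 or Cxcr6 (4676, 4643, 4597 and 4585 CPM) overlap one another. The lowest state stands apart by its interval in both tissues. Since states rest on detected transcripts, cells with few UMIs can fall in the state with none of them. In brain that state was highest for Nlrc5, at 202 CPM, with an interval that overlaps the next. The part of depth in these levels was not tested.

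H2-K1 ran from 4570 CPM in invariant receptor cells to 3034 CPM in brain cells with none of the state genes, and from 5618 CPM in invariant receptor cells to 3158 CPM in Mki67 and Top2a cells of the spleen. Psmb8 ran from 781 CPM in invariant receptor cells to 434 CPM in cells with none of the state genes in brain, and from 880 CPM to 574 CPM between the same states in spleen. Tapbp was highest in brain cells with Ccr6, a receptor of T helper 17 cells, at 228 CPM, and in spleen invariant receptor cells, at 288 CPM. Tap1 was highest in Foxp3 cells of the brain, at 173 CPM, and in Ifng cells of the spleen, at 211 CPM, next to Foxp3 cells at the same 211 CPM. Tap1, Tap2, Tapbp, Psmb9 and Nlrc5 showed no gap between neighbouring brain states, nor did Tap1 and Tap2 in spleen. Psmb9 was highest in spleen cells with Mki67 and Top2a, at 406 CPM, apart from the next state at 326 CPM. Over the 9 genes the highest state exceeded the lowest by 1.31-fold for Tap2 to 1.93-fold for B2m in brain, and by 1.33-fold for Tap1 to 1.78-fold for H2-K1 in spleen. Depth was not matched between these states.

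**Figure D3:**
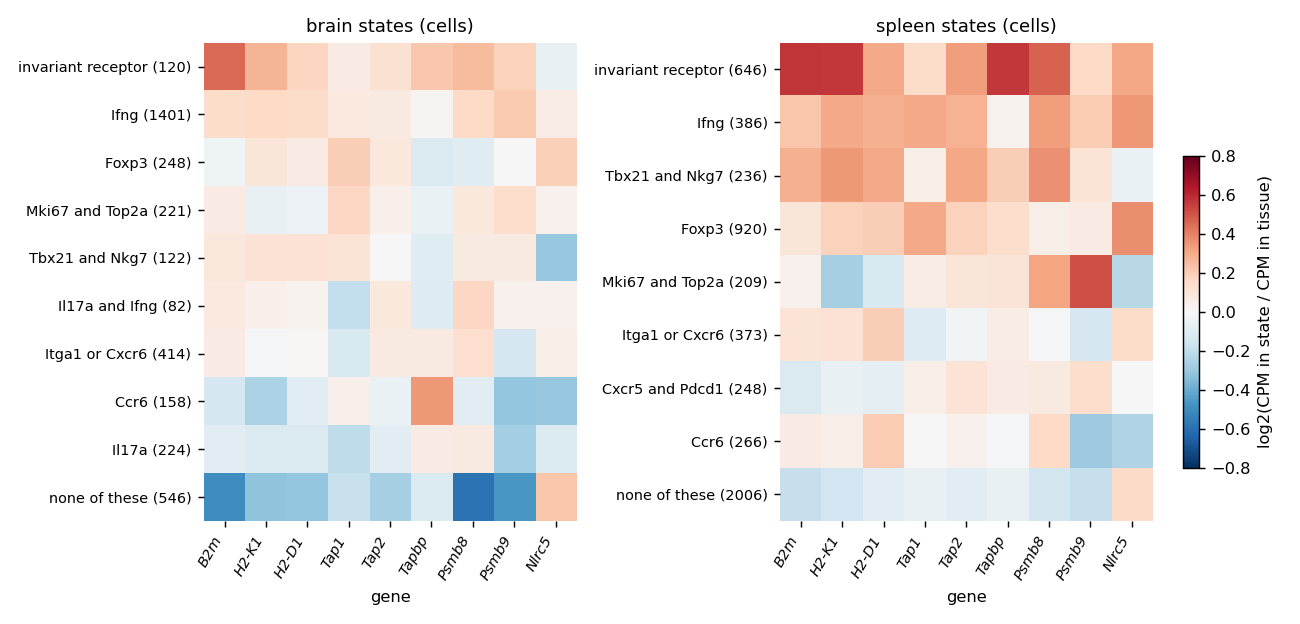
Level of each gene in each state, as log2 of its CPM in the state over its CPM in the whole tissue (red higher, blue lower), for brain at left and spleen at right, with the number of cells in brackets and states ordered by their mean. The top row in both tissues is the invariant receptor state and the bottom row the cells with none of the state genes.

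The 9 genes did not move as one over these states. Over 19 tissue-by-state units, each gene was set against the mean of the other 8 on a standardised log2 scale. The Pearson correlation was 0.88 for Tap2, 0.88 for H2-K1, 0.76 for Psmb8 and 0.67 for B2m, and lowest for Nlrc5, at 0.0037. The units share 2 libraries and their depth, so these values are descriptions. Among 3465 genes of at least 50 CPM, the 5 whose pattern was most like the mean of the 9 were Septin1 (0.87), Commd7 (0.87), Serpina3g (0.86), Lamtor4 (0.86) and Cyba (0.86). Ifit1, Ifit3 and Rsad2 had correlations of 0.12, 0.059 and -0.22 with the 9 genes over the same units. For Irf1 the value was 0.034, while for Isg15, another interferon-induced gene, it was 0.47. Between single interferon-none cells thinned to the same depth, the 3 chains correlated with each other at 0.47 to 0.52 in brain and 0.48 to 0.51 in spleen. No other pair exceeded 0.35 in brain or 0.24 in spleen, and B2m with Nlrc5 had -0.14 in brain and -0.10 in spleen. Cells of the low-UMI clusters with enough UMIs to be thinned were not left out here. Their part in these correlations was not tested.

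Matching the states between tissues changed the reading for H2-K1. Its pooled levels were equal, yet within 8 matched states it was lower in brain than in spleen in 7, with ratios from 0.810 to 0.938 whose intervals lie below 1. Invariant receptor cells had 4570 CPM in brain, against 5618 CPM in spleen, and Ifng cells 4236 CPM in brain and 4684 CPM in spleen. Only the cells with Mki67 and Top2a went the other way, at 3641 CPM in brain, against 3158 CPM in spleen. With equal weight for each state the ratio was 0.904, and the count of 7 of 8 held under TMM factors, DESeq2 size factors and totals without ribosomal, mitochondrial and receptor genes. The mix of states differed between the tissues. Ifng cells were 1401 of 3964 in brain and 386 of 7988 in spleen, while invariant receptor cells, the state highest in H2-K1, were 120 in brain and 646 in spleen. The part of each state's share in the pooled ratio was not tested.

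Psmb9 and Tap1 were lower in brain in 8 of 8 states, at ratios of 0.682 to 0.902 and 0.752 to 0.947, with intervals below 1 in 6 states for Psmb9 and 5 for Tap1. Psmb8 was lower in 7 of 8 (lowest 0.756) although its pooled ratio was 1.03, and Tapbp and Tap2 were lower in 7 of 8 each. B2m was higher in brain in 7 of 8 states, at most 1.19, or in 5 of 8 with totals without ribosomal, mitochondrial and receptor genes. H2-D1 was higher in 6 of 8, a count that moved between 4 and 7 with the scaling, and Nlrc5 in 5 of 8, or 4 of 8 with those totals. None of the 9 genes reached 1.5-fold in any of the 8 states. In interferon-none cells alone 2 did, both lower in brain: Psmb9 at 0.660 in cells with none of the state genes and Tapbp at 0.639 in invariant receptor cells. The share of all genes past the rule is not given within states.

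Cells of the same receptor were compared as a further match. In 17 clonotypes with 3 or more cells per tissue (170 brain and 150 spleen cells), H2-K1 was lower in brain in 15, with a median log2 difference of -0.34 on log2(CPM + 10). H2-D1 was lower in brain in 13 of 17 (median -0.21), although its pooled ratio was above 1. Tap1 was lower in brain in 13 of 17 (median -0.54, range -3.42 to 1.08). B2m was lower in 10 and higher in 7 (median -0.05), and Nlrc5 was higher in brain in 11 (median 0.07). Tap2 was higher in brain in 10 and lower in 7, unlike in the matched states, while Tapbp was higher in 8 and lower in 9, Psmb8 higher in 7 and lower in 10, and Psmb9 higher in 6 and lower in 11. The clonotypes come from 1 pool of cells per tissue and are not replicates, and few cells per clonotype leave the low genes poorly measured.

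**Figure D4:**
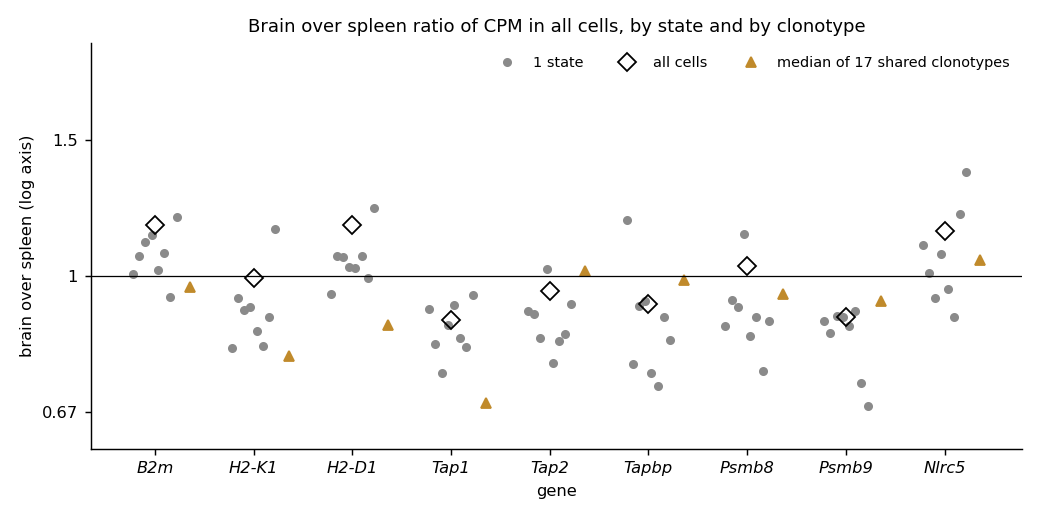
Brain over spleen ratio of CPM (log axis) for each gene in each of the 8 matched states (grey points), in all cells (open diamonds) and as the median of 17 clonotypes found in both tissues (triangles, from log2(CPM + 10)). For H2-K1 the open diamond lies at 0.997 and all but 1 of the grey points lie below it, and the triangle lies lower still.

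In both tissues a group of cells stood apart by low UMI numbers, and there the 9 genes parted ways. These clusters held 295 brain cells (7.44%, median 3357 UMIs against 10196 in the other cells) and 521 spleen cells (6.52%, 2565 against 7361). Nlrc5 had 592 CPM in them and 161 CPM in the other brain cells, a ratio of 3.68 (3.40 to 3.98), and 580 CPM against 138 CPM in spleen (ratio 4.19, 3.93 to 4.48). The nuclear transcript Malat1 behaved alike, at 3.27 in brain and 3.38 in spleen. The other 8 genes were lower: B2m at 0.163 in brain and 0.200 in spleen, Psmb8 at 0.142 and 0.192, Psmb9 at 0.166 and 0.351, and Tap1, nearest to 1, at 0.781 and 0.815. Mitochondrial UMIs were 3.65% in the low-UMI clusters and 2.03% in the other brain cells, and 3.80% and 2.34% in spleen. Without these clusters Nlrc5 had ratios of interferon-high over interferon-none cells of 1.45 in brain and 1.76 in spleen.

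**Figure D5:**
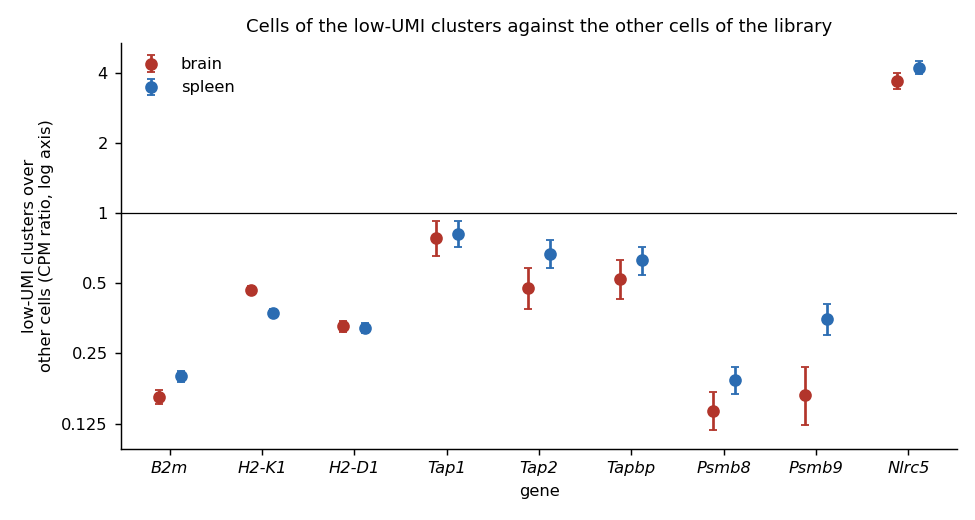
Ratio of CPM in the low-UMI clusters over the other cells of the library (log axis, 95% counting interval) for each gene, in brain and in spleen. Nlrc5 lies at 3.68 in brain and 4.19 in spleen, and the other 8 genes lie below 1 in both.

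Cells of expanded clonotypes had none of the 9 genes past the fold rule. Cells of clonotypes with at least 5 cells in the tissue were compared with cells of clonotypes seen once, 726 against 1843 cells in brain and 214 against 5988 in spleen. The count was 0 of 9 in each tissue, where 5.24% of genes were higher and 3.49% lower in brain, and 14.3% higher and 6.69% lower in spleen. The ratios ran from 0.986 for Tapbp to 1.17 for Psmb8 in brain, and from 1.12 for Tapbp to 1.34 for H2-D1 in spleen. Of the 6 other class I genes none was called in brain, and in spleen H2-Q7 was called, at 1260 CPM in expanded and 820 CPM in single cells (1.54), with H2-Q6 just under the rule at 1.497. Interferon-high cells were 8.54% of expanded and 10.5% of single cells in brain, and 1.40% and 4.12% in spleen. Ifit1 had a ratio of 0.807, Ifit3 of 0.720 and Rsad2 of 0.926 in brain. In spleen Ifit1 had 0.482, Ifit3 0.441 and Rsad2 1.05, the last from 11 UMIs in expanded cells. Of the 19 type I interferon-stimulated genes tested, 0 were higher and 4 lower in expanded cells of the brain, and 2 higher and 6 lower in those of the spleen. In spleen, Mx1 (2.23) and, on the interferon-γ list, Cxcl10 (3.61) were called higher in expanded cells, from 34 and 47 UMIs in those cells. Of the 214 expanded spleen cells, 60 were of 1 clonotype.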

How the data were processed

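Whole UMI counts per gene and cell barcode fill the deposited matrices, and the deposited receptor tables list contigs with read and UMI counts. Cell Ranger 9.0.0 is named per the file headers and the submitters' processing notes, which also list the builds mm10, mm39, GRCm38 and GRCm39 with no role, so promoter sequences (RefSeq, GRCm38.p6) were matched by symbol only. Labels state 18718 brain and 38000 spleen cells loaded.

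A barcode was kept (4143 brain, 8474 spleen) when it had 500 or more genes, 1000 or more UMIs and mitochondrial UMIs of 10% or less. No doublet caller was run: barcodes with more than 1 productive TRB or 2 TRA chains (179 brain, 315 spleen) were left out, as were 171 spleen cells of a B cell-like cluster. Leiden clusters (scanpy 1.11.5, resolution 0.8, 2000 variable genes, 30 components, 15 neighbours) were made without the 9 genes. Summed counts gave CPM with exact Poisson intervals, ratios with conditional binomial intervals and shares with Clopper-Pearson intervals (95%), all for counting error only. The states, in order of precedence, were Mki67 and Top2a, invariant receptor, Foxp3, Il17a with Ifng, Il17a, Ifng, Cxcr5 and Pdcd1, Eomes and Gzmk, Zeb2 with Cx3cr1 or S1pr5, Tbx21 and Nkg7, Ccr6, Itga1 or Cxcr6, and none of these; 1 further state and 1 regulator are not reported here. States under 50 cells in a tissue were not read. Low-UMI clusters had a median under 0.5 of the library's. The fold rule was run on simulated Poisson counts drawn from a profile shared by both groups. There 0% of unchanged genes passed for brain over spleen, 0.111% for interferon-high over interferon-none cells in brain and 0.781% in spleen. The simulated counts held counting error only, so these shares do not measure false calls from variation between cells, animals or libraries.

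All 9 genes are named in each comparison; of each list, genes past 1.5-fold, up to 4 by size, and others chosen after their values were seen. The genes, lists and rules were chosen with earlier results of these data known. Alternatives were other scalings (edgeR 4.0.16 TMM, DESeq2 1.42.0 size factors), thresholds, gates, depths and cell sets.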

Additional observations from a re-analysis of the deposited data

How the results depend on the processing

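No paired analysis was possible because each tissue has 1 library, and for the same reason no replicate could be left out. The count of 0 of 9 genes for brain over spleen, in all cells and in interferon-none cells, was 0 under all 16 alternatives. Among these, the 2-fold rule and the changed minimum CPM reused the same ratios and could only give 0. For interferon-high over interferon-none cells in brain, the 4 calls became 7 at a ratio of 5 to 4, 1 at 2-fold (Tapbp), 1 with any 1 of the 3 genes as the gate (Tapbp), 2 with the state mix of interferon-high cells and 2 with interferon-none cells of the same clonotypes (Tap1 and Tapbp both times). In spleen, the 5 calls became 0 at 2-fold, 0 with any 1 gene as the gate and 3 with a gate on Mx1, Isg15 and Usp18 (Tap1, Tapbp and Psmb9). The share of all genes past the rule is not given for these alternatives, here or above, so their counts cannot be set against it. The share of interferon-high cells was 4.76% in brain and 1.96% in spleen after thinning, and 4.01% in brain and 1.23% in spleen when all 3 genes were required. The median over genes of the highest over the lowest state was 1.44 in brain and 1.53 in spleen, and 2.33 and 2.08 over Leiden clusters without the low-UMI ones. Nlrc5 passed 1.5-fold over all brain cells in 1 alternative, thinning, at 1.68, and within 1 brain state, the cells with Mki67 and Top2a, at 1.52. The clonotype match was not run in spleen, where 13 interferon-high cells had a partner. The gate depends on depth, and Tap1, Tap2, Tapbp, Psmb9 and Nlrc5 average under 1 UMI in an interferon-none cell thinned to 3000 UMIs.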

Other observations

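Single large brain clones differed in level. The largest, of 67 cells, had 5220 CPM of B2m and 752 CPM of Psmb8, and the next, of 57 cells, had 5324 CPM and 941 CPM. A clone of 48 cells had 3759 CPM of B2m and 644 CPM of Psmb8. Its Tap1 level was 116 CPM (87.1 to 151), against 205 CPM (169 to 245) in the clone of 57 cells.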
